A study of Mus musculus with 6 samples.

Results

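The miRNAs described here are those of the imprinted Dlk1-Dio3 cluster, measured in CT26 cells, a mouse colorectal cancer line. Mouse probes of the array were taken as members where the miRNA name, without its arm and locus number, was one of 51 names listed for the cluster, and 49 of the 51 had a probe. This gave 96 member probes of 1126 mouse miRNA probes. A probe counted as measured where its mean background-subtracted intensity, over its 4 spots, reached 50 on at least 3 of the 6 arrays. By that rule 21 members were measured and 75 were low. The names miR-299 and miR-496 had no probe as written, and the 5 probes named miR-299a, miR-299b and miR-496a, which were not counted as members, were all low.

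The TGF-β1 knockdown line carried the vector shRNA-TGF-β1-pSUPER gfp-neo, and the control line the vector shRNA-Control-pSUPER gfp-neo, each in CT26 by stable transfection. Both lines therefore carry a hairpin vector with GFP and neomycin resistance, and no untransfected cells enter here. Time points were 24, 48 and 72 h. Every line and time has 1 array, per the labels, and each array was treated as its own culture. The labels call the transfection stable and also give the times as hours of transfection, so the moment from which the times count is not settled, and whether a line is 1 clone or a pool is not given in the sources used here. The array holds no probe for the Tgfb1 transcript, so the knockdown itself could not be checked in any sample.

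In the mouse the Dlk1-Dio3 region lies on distal chromosome 12. Its protein-coding genes, Dlk1, Rtl1 and Dio3, are expressed from the paternal chromosome, while the maternal chromosome makes long noncoding transcripts (Meg3, the antisense transcript of Rtl1, Rian and Mirg) from which these miRNAs are cut. The cluster is known for high expression in the embryo, the placenta and the brain. A miRNA hairpin gives 2 possible products, the 5p and the 3p arm, and the seed (bases 2 to 8) is the stretch that pairs with target mRNAs.

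In the RefSeq tables (assembly GRCm38.p6) the member hairpins spanned 180.1 kb. A gap of 90.7 kb separated the hairpins from miR-770 to miR-370, which lie within the RefSeq spans of Meg3, Rtl1 and Rian, from the dense group that starts with miR-379 and runs into Mirg. That dense group is called the Mirg group here, from background knowledge. Most of its hairpins lie before the RefSeq span of Mirg. RefSeq held mature sequences for 92 of the 96 member arms and for 20 of the 21 measured ones, all but miR-539-3p. Measured members with a difference of 2-fold or more at 72 h are shown first, since the comparison of the lines turns on them. Sequences run 5′ to 3′ and the seed is in capitals. The first 6 are those with the higher level in the knockdown on their 72 h arrays.
miR-665-3p: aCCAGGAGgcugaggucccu
miR-433-5p: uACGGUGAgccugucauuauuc
miR-341-3p: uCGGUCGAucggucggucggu
miR-1193-3p: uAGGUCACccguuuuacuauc
miR-300-5p: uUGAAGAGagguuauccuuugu
miR-541-3p: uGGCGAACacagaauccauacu

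The next 2 had the lower level in the knockdown at 72 h, and miR-381-5p was past 2-fold at 24 h.
miR-668-3p: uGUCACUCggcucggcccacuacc
miR-495-5p: gAAGUUGCccauguuauuuuucg
miR-381-5p: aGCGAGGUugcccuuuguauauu

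The last 4 are miR-667-3p, whose 72 h value rests on 2 of its 4 spots, miR-540-3p, a low member that stood high on 2 knockdown arrays, and miR-494-5p with miR-410-5p, a pair that shares a seed.
miR-667-3p: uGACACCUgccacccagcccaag
miR-540-3p: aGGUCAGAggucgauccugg
miR-494-5p: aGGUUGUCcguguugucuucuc
miR-410-5p: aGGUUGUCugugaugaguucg

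Shared seeds were uncommon, with 10 of 92 member arms sharing theirs with another member. Of the 20 measured members with a sequence, 19 had a seed that no other member shares, and 0 shared a seed with a mouse miRNA outside the cluster on the array. The exception, miR-494-5p, was measured, while miR-410-5p with the same seed was low. The tetramer CGGU occurs 4 times in miR-341-3p, searched on the RNA strand only. It was found at least once in 13.0% of the member arms and in 3.87% of the 1679 mouse mature miRNAs in the table. Median GC content was 51.2% in the measured members and 48.9% in the low ones. Median U content was 32.6% and 27.3%, and median A content was 17.4% and 20.4%, in the same order.

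The hairpins of 3 members with a difference of more than 2-fold at 72 h show which arm the array detected. The measured arm is in capitals, and the partner arm of each was low. The hairpins lie on the plus strand at chr12:109586314-109586407 for miR-665, chr12:109591715-109591838 for miR-433 and chr12:109742409-109742498 for miR-541, in GRCm38.p6.
miR-665: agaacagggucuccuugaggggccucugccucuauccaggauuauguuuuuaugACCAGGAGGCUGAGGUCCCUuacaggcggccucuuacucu
miR-433: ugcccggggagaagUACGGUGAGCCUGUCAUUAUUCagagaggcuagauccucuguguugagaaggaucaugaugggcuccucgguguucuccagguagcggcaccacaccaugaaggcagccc
miR-541: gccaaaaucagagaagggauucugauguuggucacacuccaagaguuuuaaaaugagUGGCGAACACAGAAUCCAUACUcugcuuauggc

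Between 321 and 374 mouse probes reached an intensity of 50 on an array, and between 16 and 21 of the members did. Median local background ran from 89 to 181. On the control array of 72 h, 588 spots had a local background of more than 3 times the array's median, 17 of them member spots, against at most 15 such spots on any other array. Of probes for miRNAs typical of colon epithelium, 5 of 21 were measured, between 4 and 5 of them reaching 50 on each array. The counts were 4 of 13 for neuronal miRNAs, where this cluster is known to be high, 7 of 9 for fibroblast and smooth muscle miRNAs and 3 of 9 for blood miRNAs. Median knockdown minus control differences at 24, 48 and 72 h, on the log2 scale, were -0.48, 0.23 and -1.23 for the fibroblast and smooth muscle list and -0.48, 0.76 and 0.12 for the neuronal list. They were 0.28, -0.46 and 0.14 for the colon epithelium list and -0.65, -0.11 and 0.21 for the blood list. The part of these miRNAs in the members' differences was not tested. These are bulk cultures, in which fewer cells making a miRNA and less of it per cell cannot be told apart.

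Most of the cluster was at or below background in CT26. The measured share was 21.9% (21 of 96 probes), against 34.1% of the other mouse probes (351 of 1030). Of the 75 low members, 65 were under 50 on all 6 arrays and 49 had a mean intensity below 0 on all 6. Of the measured members, 10 reached 50 on all 6 arrays, 4 on 5, 2 on 4 and 5 on 3. Detection was spread along the locus. It took in 3 of 12 probes from miR-770 to miR-665, 2 of 10 antisense to Rtl1, 1 of 5 in the Rian group and 15 of 69 in the Mirg group.

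**Figure D1:**
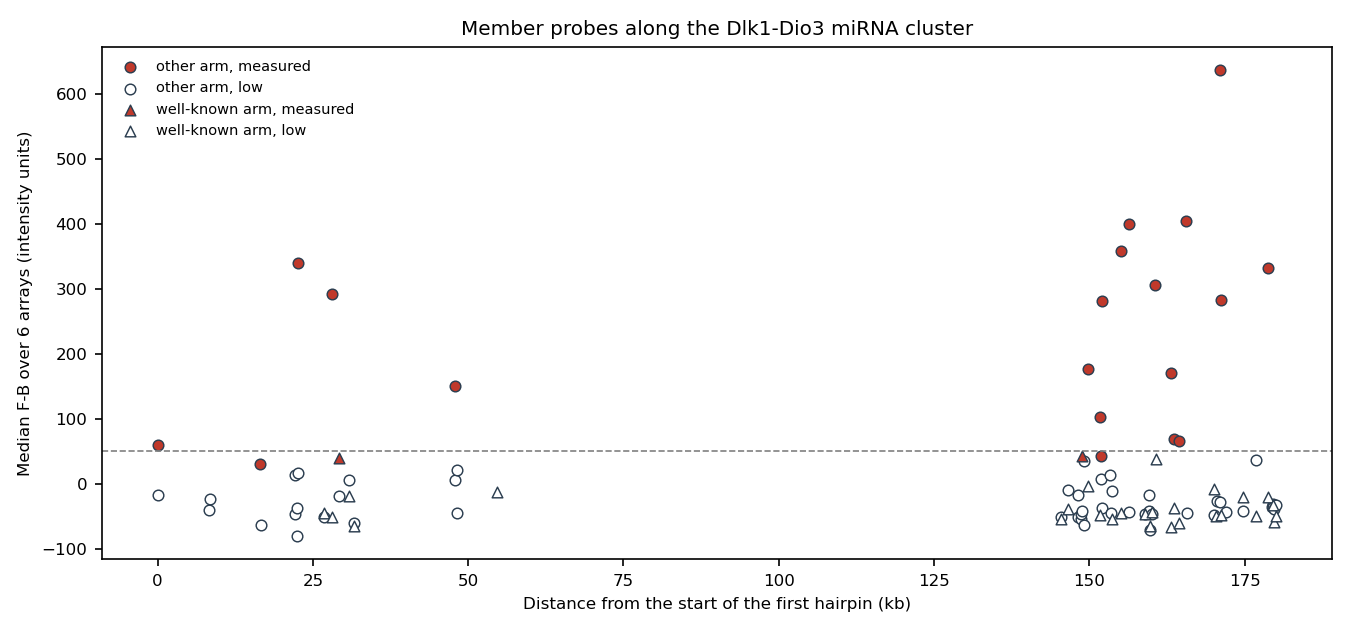
Median background-subtracted intensity over the 6 arrays (vertical axis, intensity units) of each member probe against its distance in kb from the start of the first hairpin. Filled symbols are the 21 measured members, open symbols the 75 low ones, triangles the 29 arms best known from other tissues, and the dashed line marks 50; only 2 of the triangles are filled.

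Each hairpin was seen through a single arm at most. Of 47 member miRNAs with both arms on the array, 0 had both measured, and the 21 measured probes came from 21 hairpins. The 3p arm was measured for 11 of 48 probes and the 5p arm for 10 of 47. The arms best known from other tissues, listed from general knowledge after the values had been seen, were mostly low. Only 2 of 29 were measured, and 20 of 29 were below 0 on all 6 arrays, while 10 of 28 partner arms were measured. The well-known miR-134-5p, which limits dendritic spine size in rat neurons, had a median intensity of -50.1, and miR-379-5p, the first hairpin of the Mirg group, had -54.2. The 2 measured ones were miR-127-3p and miR-323-3p, each with 50 or more on only 3 arrays. The level of 1 probe cannot be set against that of another, since probes differ in affinity, so these counts describe detection and not arm ratios. The same counts were not taken for hairpins outside the cluster, so none of them is read as particular to it.

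The first comparison asked whether members differ between the knockdown and the control over the 3 time points. With time as a block in limma, 0 of the 21 members passed an adjusted p of 0.05, and 0 of all 372 tested probes did (0%). At an unadjusted p under 0.05 there were 0 members and 1 probe in all. The knockdown was above the control for 12 of 21 members, with a median difference of 0.12 on the log2 scale, against 157 of 372 probes and a median of -0.11 overall. The members' mean differences ran from -0.59 to 1.04, and their 95% intervals reached a median of 1.29 to either side, which is wider than a 2-fold difference. The p-values set the mean difference against how far the difference between the lines varied over the 3 times, since no time point was repeated within a line. A difference that changes with time thus counts as spread and cannot be told apart from array noise.

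The 3 members with the greatest mean difference were miR-667-3p, miR-665-3p and miR-433-5p. For miR-667-3p, from the Mirg group, the knockdown's mean log2 level was 9.24 ± 0.07 (SD, n = 3) and the control's was 8.20 ± 1.34 (SD, n = 3). Each SD here and below is over the 3 time points of a line, which are not replicates. They differed by 1.04 (95% interval -0.35 to 2.43, limma adjusted p = 0.998). It was the single member whose 3 knockdown arrays all lay above the 3 control arrays, an order seen in 11 of all 372 probes (2.96%). The opposite order was seen in 0 members and in 16 of all probes (4.3%).

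The size of the difference of miR-667-3p at 72 h depended on local background. Its intensities were 415, 529 and 540 in the knockdown at 24, 48 and 72 h and 338, 384 and -150 in the control. On the control array of 72 h, the 2 spots in the first 18 blocks of the array gave 252 and 296, and the 2 in the last 18 gave -416 and -731. Foreground at those last 2 spots was 177 and 121, under local backgrounds of 593 and 852. The 72 h difference was 2.50 from all spots and 0.30 with spots of high local background left out. With those spots left out the differences at 24, 48 and 72 h were 0.31, 0.30 and 0.30, and all 3 knockdown arrays still lay above the 3 control arrays. The control's log2 levels were then 8.96, 9.01 and 8.87, so its spread over the times came mostly from those spots.

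For miR-665-3p, whose hairpin lies within the span of Rtl1, the knockdown's level was 9.27 ± 0.61 (SD, n = 3) and the control's was 8.29 ± 0.68 (SD, n = 3). They differed by 0.98 (95% interval -0.39 to 2.36, limma adjusted p = 0.998). For miR-433-5p, cut from the antisense transcript of Rtl1, they were 9.61 ± 1.34 (SD, n = 3) and 8.78 ± 0.10 (SD, n = 3). These differed by 0.83 (95% interval -0.59 to 2.24, limma adjusted p = 0.998). The spread of miR-433-5p lay almost wholly in the knockdown, whose 72 h array stood apart. The lowest mean difference was that of miR-668-3p, at -0.59 (95% interval -2.09 to 0.90, limma adjusted p = 0.998). These means leaned on the 72 h arrays. Without them the difference was 0.31 for miR-667-3p, 0.36 for miR-665-3p, 0.11 for miR-433-5p and 0.18 for miR-668-3p, the last with its sign turned.

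**Figure D2:**
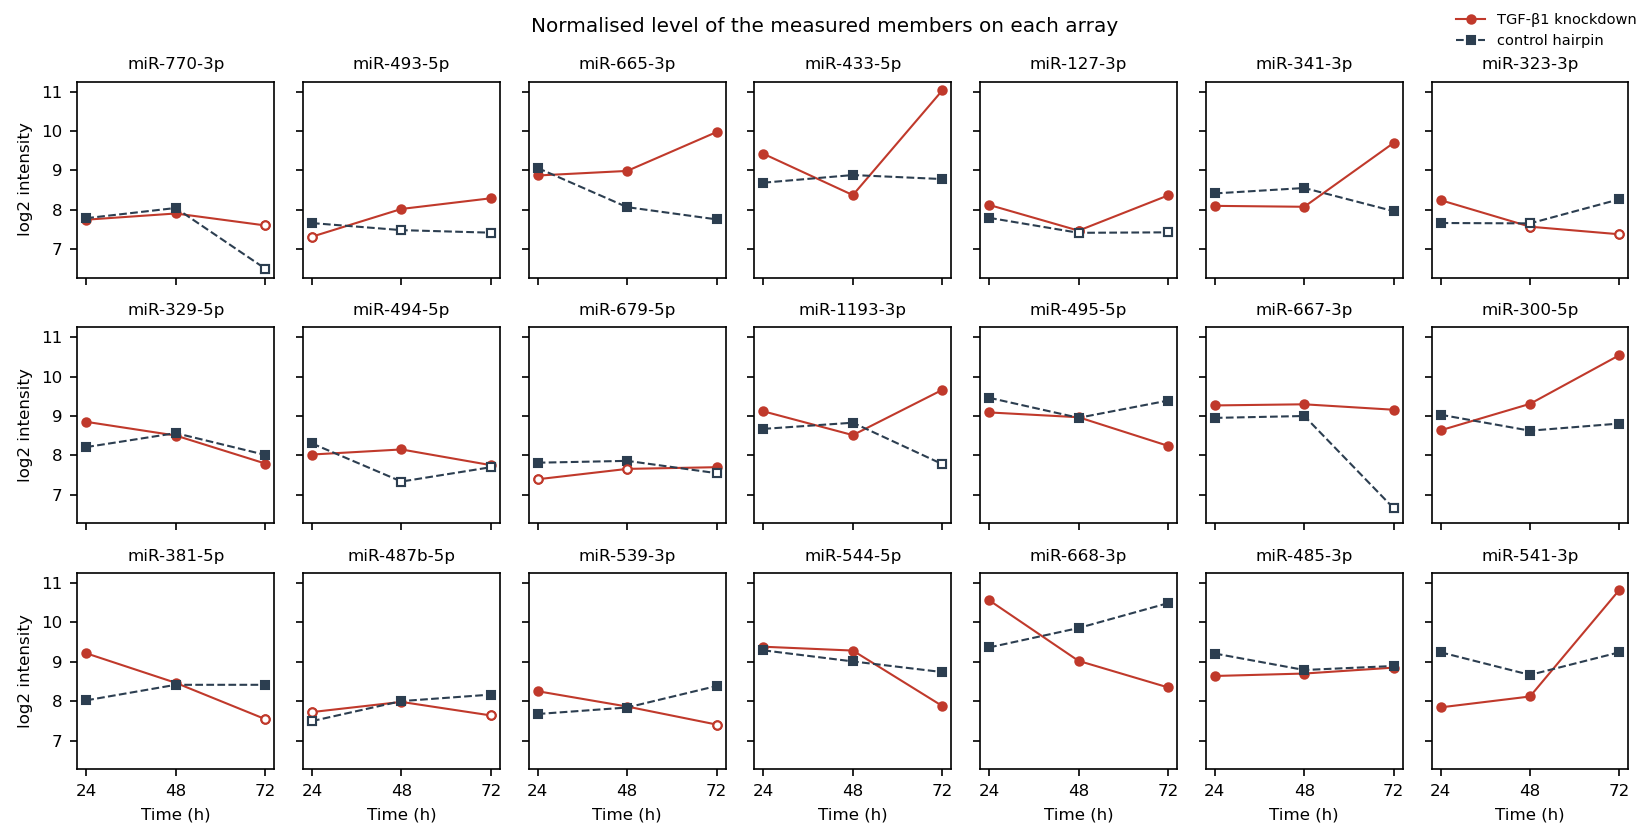
Normalised log2 intensity (vertical axis) of the 21 measured members on each array against time in h, in locus order, for the knockdown (red circles) and the control (dark squares); each point is 1 array and open points had a background-subtracted intensity under 50. The knockdown stays on 1 side of the control at all 3 times for 3 of 21 members (52 of 372 tested probes), and the knockdown array of 72 h carries the highest points of miR-433-5p, miR-541-3p and miR-300-5p.

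Single time points have 1 array for each line and no test, so they are described by size. A probe was eligible at a time where it reached 50 on at least 1 of the 2 arrays. At 24 h, 2 of 23 eligible members were higher by at least 2-fold in the knockdown (2.66% of all 413 eligible probes) and 1 was lower (8.47% of all). The higher ones were miR-668-3p at 2.30-fold and miR-381-5p at 2.29-fold. The lower one was miR-541-3p at 2.64-fold. At 48 h, 1 of 22 members was higher (21.5% of all 441 probes) and 0 were lower (13.2% of all), and that 1 was the low member miR-540-3p. At 72 h, 9 of 26 members were higher (18.5% of all 454 probes) and 3 were lower (25.3% of all). Without scaling between arrays the 72 h split was 8 higher and 9 lower among members and 57 and 170 among all probes, against 84 and 115 in all probes here.

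The 72 h arrays thus held most of the members' differences. For the 21 measured members the median absolute log2 difference was 0.40 at 24 h. The same median was 0.28 for the 48 h arrays and 0.98 for the 72 h arrays. For all 372 tested probes it was 0.39, 0.64 and 0.87. The members differed less between the lines at 48 h than the tested probes as a whole, while at 24 and 72 h the medians were close. The knockdown array of 72 h was the highest of the 6 for 8 of 21 members (79 of 372 probes) and the lowest for 7 (132 of 372 probes).

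**Figure D3:**
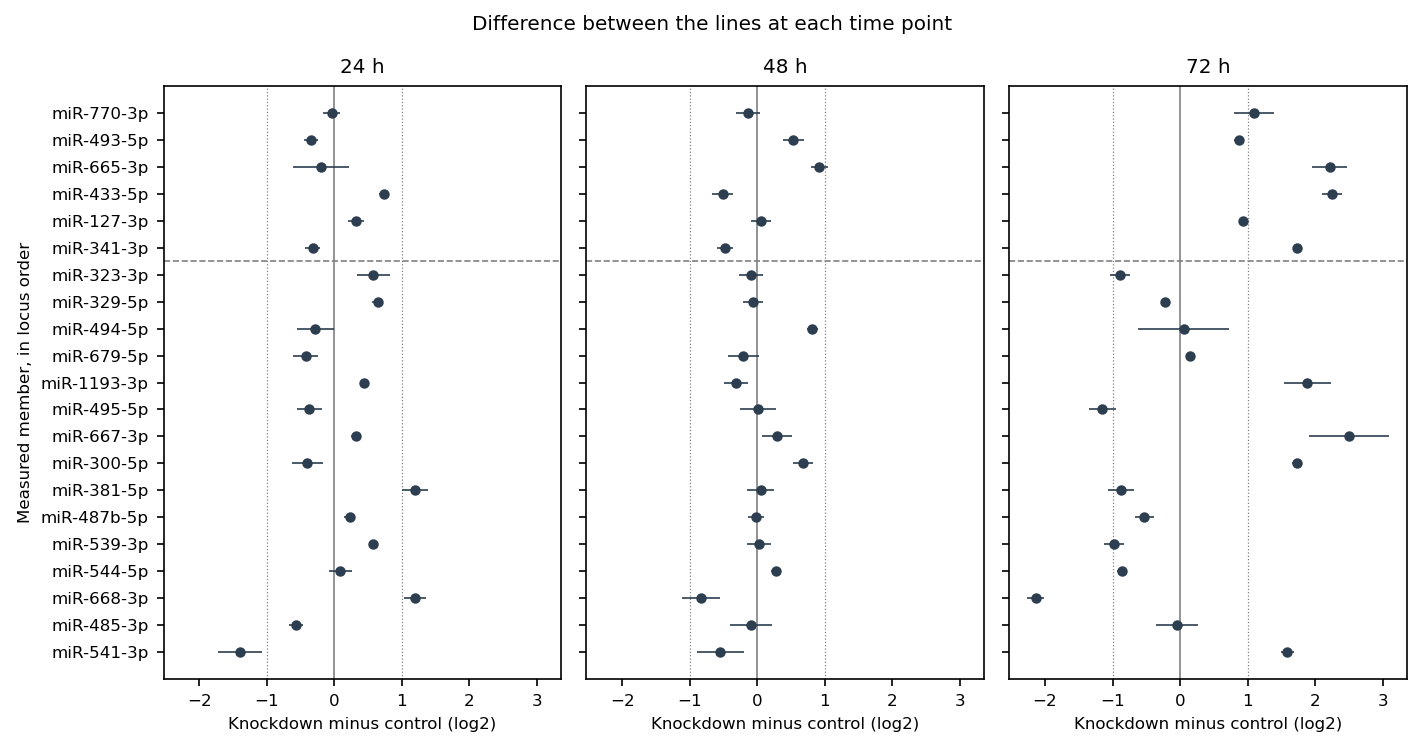
Knockdown minus control difference (horizontal axis, log2) of the 21 measured members at 24, 48 and 72 h, in locus order; bars are the standard error over the replicate spots, which covers spot noise only, dotted lines mark 2-fold and the dashed line the gap before the Mirg group. At 72 h all 6 members above the dashed line lie to the right of 0, and members below it lie on both sides.

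From miR-770, inside Meg3, to miR-665, inside the span of Rtl1, 3 members were measured. The intensities of miR-665-3p were 338, 342 and 1147 in the knockdown at 24, 48 and 72 h and 370, 108 and 52 in the control. The groups overlapped at 24 h, and at 72 h the knockdown was 4.65-fold higher. For miR-493-5p they were -6, 97 and 176 in the knockdown and 52, 3 and 9 in the control. This probe was near background except on 2 knockdown arrays, and its 72 h value was at least 1.46-fold higher, computed against the lowest normalised level of probes at 50 on the control array. The probe of miR-770-3p, the most upstream hairpin, had 39 in the knockdown and -169 in the control at 72 h, both under 50, so no fold is given.

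Antisense to Rtl1, miR-433-5p and miR-127-3p were measured. Hairpins of this group match the Rtl1 mRNA perfectly and are known to cleave it. The intensities of miR-433-5p were 456, 170 and 1924 in the knockdown and 264, 321 and 238 in the control. The knockdown held both the lowest and the highest of the 6 values, and at 72 h it was 4.76-fold higher. For miR-127-3p they were 110, 5 and 198 in the knockdown and 71, -6 and 9 in the control. Both lines followed the same order at 24 and 48 h, and at 72 h the knockdown was at least 1.53-fold higher.

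In the Rian group only miR-341-3p, the miRNA with the repeated CGGU, was measured. Its intensities were 107, 106 and 886 in the knockdown and 194, 212 and 82 in the control. The knockdown was the lower line at 24 and 48 h and 3.33-fold the higher at 72 h.

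The Mirg group held 15 measured members. Those higher in the knockdown at 72 h by 2-fold were miR-300-5p, miR-541-3p, miR-1193-3p and miR-667-3p. The intensities of miR-300-5p were 233, 540 and 1484 in the knockdown and 365, 242 and 247 in the control. The knockdown was lower at 24 h, and at 72 h it was 3.34-fold higher. For miR-541-3p they were 68, 118 and 1750 in the knockdown and 453, 283 and 380 in the control. Its knockdown arrays lay below all 3 control arrays at 24 and 48 h and above them at 72 h, where the line was 3.00-fold higher. For miR-1193-3p they were 360, 212 and 863 in the knockdown and 261, 300 and 34 in the control. The control array of 72 h was under 50 here, and the log2 difference of 1.89 became 1.30 with spots of high local background left out.

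Other members of the Mirg group had the opposite sign at 72 h. The intensities of miR-668-3p were 1205, 356 and 195 in the knockdown and 479, 795 and 1134 in the control. The knockdown values descended with time while the control values ascended, from 2.30-fold higher at 24 h to 4.41-fold lower at 72 h. For miR-381-5p they were 402, 206 and 32 in the knockdown and 110, 179 and 162 in the control. It too was higher in the knockdown at 24 h and lower at 72 h, by a measured ratio of 1.83 with the knockdown array under 50. For miR-495-5p they were 362, 356 and 172 in the knockdown and 520, 348 and 428 in the control. The lines were level at 48 h, and at 72 h the knockdown was 2.22-fold lower.

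The other 8 measured members of the group, with intensities between -20 and 518, showed differences under 2-fold at every time. The log2 differences at 72 h were -0.98 for miR-539-3p, -0.89 for miR-323-3p, -0.86 for miR-544-5p and -0.53 for miR-487b-5p. Those nearest 0 were -0.22 for miR-329-5p, -0.04 for miR-485-3p, 0.05 for miR-494-5p and 0.15 for miR-679-5p. The standard error over spots was 0.67 for miR-494-5p and 0.31 for miR-485-3p, so the sign of neither at 72 h is fixed by the spots.

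Position along the locus and sign at 72 h can be read together, a view taken after the values had been seen and given with no test. All 6 measured members upstream of the gap had a difference above 0 at 72 h, with a median of 1.42, and so did 6 of the 15 in the Mirg group, with a median of -0.22. Over all tested probes 137 of 372 were above 0. At 24 h the upstream members above 0 were 2 of 6, and at 48 h 3 of 6. Among the measured 6, miR-770-3p was under 50 on both 72 h arrays. The intensity rule used these same 72 h values. Among members at 50 on only 3 arrays, miR-493-5p, miR-127-3p and, in the Mirg group, miR-679-5p passed only with the knockdown array of 72 h. In the Mirg group miR-323-3p and miR-487b-5p passed only with the control array of 72 h. Both counts thus rest in part on the rule. Taking instead every member with 50 or more on a 72 h array, low ones included, 7 of 9 upstream members were above 0. In the Mirg group it was 8 of 17. The medians were 0.94 and -0.04, against -0.19 over all 454 eligible mouse probes, whose share above 0 was not counted. This choice also uses the 72 h values, since a member can enter by the array where it is high. It is therefore no independent check. The upstream exceptions were the low members miR-434-5p at -2.09 and miR-337-3p at -0.63. The count over the measured upstream members at 72 h was 5 of 6 without scaling between arrays and in the first 18 blocks alone, miR-770-3p being the one that turned, and 6 of 6 under the other processing alternatives that recompute the value. The difference between both stretches was not tested.

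The replicate spots gave a further check of the 72 h values. Each probe had 2 spots in 1 of the first 18 blocks and 2 in 1 of the last 18. For miR-433-5p the 72 h difference was 2.72 in the first 18 and 1.93 in the last 18. For miR-665-3p these were 2.75 and 1.85, and for miR-668-3p they were -2.08 and -2.25. Both sets of blocks gave differences of the same sign and of more than 2-fold for miR-341-3p, miR-300-5p, miR-541-3p and miR-1193-3p as well. For miR-667-3p the sets gave 0.01 and 2.89, and for miR-770-3p -0.06 and 1.17.

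**Figure D4:**
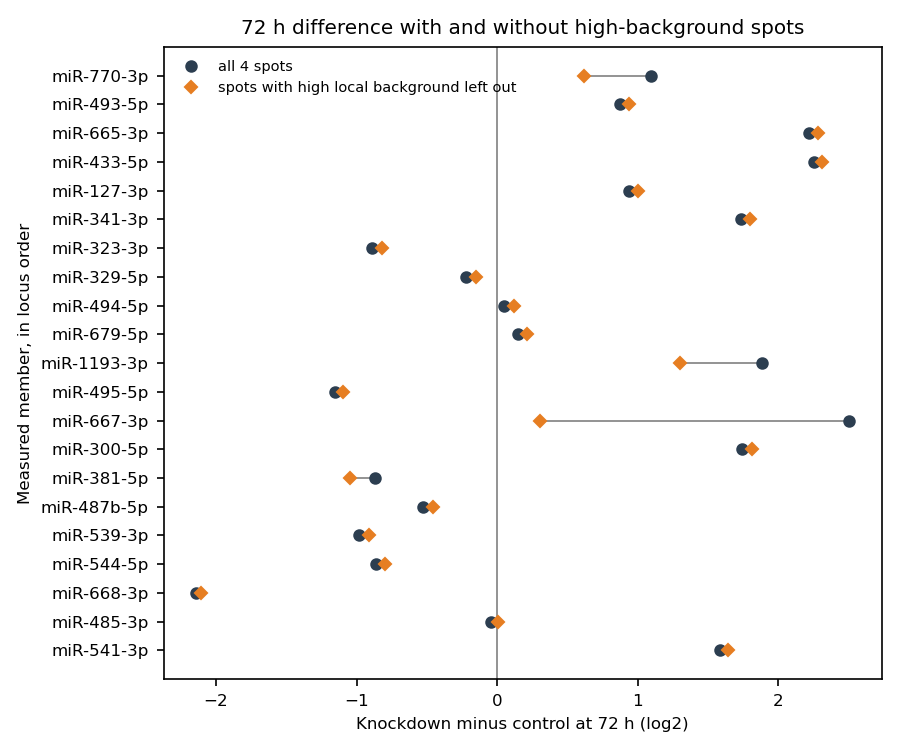
Knockdown minus control difference at 72 h (horizontal axis, log2) of the 21 measured members in locus order, from all 4 spots (circles) and with spots whose local background was over 3 times the array's median left out (diamonds). The value of miR-667-3p moves from 2.50 to 0.30, that of miR-1193-3p from 1.89 to 1.30 and that of miR-770-3p from 1.10 to 0.62. The difference of miR-381-5p grows in size instead, from -0.87 to -1.05.

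Among the low members, miR-540-3p stood apart. Its hairpin lies within the span of Rtl1, beside that of miR-665. Its mean intensities were -50, 1342 and 730 in the knockdown at 24, 48 and 72 h and -44, -50 and -31 in the control. The 4 spots of the knockdown array of 48 h gave 979, 1129, 1636 and 1624, and those of the 72 h array lay between 666 and 785. Against the lowest level of probes at 50, it was at least 6.30-fold higher at 48 h and at least 3.37-fold higher at 72 h. Its partner arm, miR-540-5p, was under 0 on all 6 arrays, with a highest value of -32.0. It missed the intensity rule by 1 array and was in no test.

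Of the other low members with 50 or more on 1 or 2 arrays, 2 passed 2-fold at 72 h. The probe of miR-434-5p, antisense to Rtl1, reached 334 on the control array of 72 h and was at least 3.11-fold lower in the knockdown there. The probe of miR-654-3p reached 278 on the knockdown array of 72 h, with a difference of 1.40 on the log2 scale as measured and at least 1.78-fold against the floor. The remaining 7, miR-377-5p, miR-1188-3p, miR-673-3p, miR-666-5p, miR-300-3p, miR-758-5p and miR-337-3p, peaked between 50 and 137. At the edge of the rule, miR-679-5p was inside with 3 arrays between 54 and 74, and miR-337-3p was outside with 2 arrays at 50.

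The last comparisons asked whether members move with culture time. For a slope per day shared by both lines, 0 of 21 members and 0 of 372 probes (0%) passed in limma, where the lowest adjusted p of any probe was 0.999. At an unadjusted p under 0.05 there were 0 members and 9 probes. The members' slopes ran from -0.60 to 0.75 log2 units per day, the highest being that of miR-541-3p. For the difference of slopes between the lines, 0 of 21 members and 0 of 372 probes (0%) passed, and 1 member and 9 probes had an unadjusted p under 0.05. The member was miR-668-3p, with a difference of slopes of -1.67 log2 units per day (95% interval -3.15 to -0.19, limma adjusted p = 0.931). The greatest difference of slopes in the other direction was 1.49 for miR-541-3p (95% interval -0.17 to 3.16, limma adjusted p = 0.931). Each slope rests on 3 arrays of a line.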

How the data were processed

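Total RNA was labelled with Hy3 and hybridised in 1 colour to a locked nucleic acid miRNA array, per the labels' protocols. Each of 15840 spots had 2 deposited intensities per array, foreground and foreground minus local background, per the file headers, with no scaling between arrays. They also deposited a ratio per probe, which equalled the median background-subtracted intensity divided by 1 number per array (313.5 to 397) in 100% of filled values (relative tolerance 1e-04). Not given in the sources used here are the choice of that number, the scanner software and any build.

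Background was corrected by normexp (offset 50) in limma 3.58.1 under R 4.3.3, log2 values of the 4 spots of a probe were averaged, and arrays were quantile normalised over 3438 mouse, viral and unnamed probes. The deposited intensities were thus turned into log2 levels here, not by the authors. Tests ran over 372 mouse probes with an intensity of 50 or more on at least 3 arrays, with moderated variances (trend, robust) and Benjamini-Hochberg adjustment at 0.05. The models were tested on simulated data with independent noise. A set share of recovery was required there only for the greatest planted difference, far above 2-fold. A side under 50 gave a bound against the lowest normalised level of probes at 50, or its own value where that was higher. Such a ratio of own values is a measured one and bounds nothing. Counts past 2-fold use the measured differences.

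The time point was the block, with the hours taken from the labels. Deviations of same-time arrays from their line means correlated at -0.30, -0.52 and -0.34 at 24, 48 and 72 h over the tested probes, so the arrays of a time did not deviate together.

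Every measured member is named, and low members are named or counted. Members, lists and tests were chosen with earlier results of these data known. Alternatives covered the background correction, scaling, filter, spots, variance model, block, fold threshold and leaving out a time point. The first or last 18 blocks alone, foreground only and leaving out spots of high local background were added after seeing the data. The number of arrays limits the precision. Mature and hairpin sequences are those of RefSeq (GRCm38.p6).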

Additional observations from a re-analysis of the deposited data

Results flagged for a closer look

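Low members, which enter no test, were looked at for a signal on a knockdown array where all 3 control arrays were under 50, and 6 of 75 showed one (8.0%). Over all low mouse probes it was 81 of 754 (10.7%). The mirror pattern, 50 or more on a control array and on no knockdown array, was seen in 4 of 75 low members (5.33%) and in 40 of 754 low probes (5.31%). Those 4 were miR-434-5p, miR-1188-3p, miR-758-5p and miR-337-3p. The probe of miR-540-3p had a mean background-subtracted intensity of 1342 on the knockdown array of 48 h and 730 on that of 72 h. On the knockdown array of 72 h, miR-654-3p had 278, miR-673-3p had 78.5 and miR-666-5p had 58.2. On the knockdown array of 24 h, miR-377-5p had 137 and miR-300-3p had 54.2. Groups of 3 arrays were not examined for outlying samples.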

How the results depend on the processing

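No member passed in limma under any alternative. The fit with no replicate block (time point left out) gave 0 members and 0 probes called, and a median member difference of 0.12. Leaving out each time point in turn gave between 0 and 3 called probes over all tested ones, the 3 without 48 h, and 0 called members. It gave a median member difference between 0.14 and 0.43, the highest without 24 h. The slope difference could not be fitted without a time point. The median member difference was 0.0286 with floored intensities, -0.0400 without scaling, -6.82e-05 over members at 50 on all 6 arrays, -0.0368 without the filter and 0.24 in the last 18 blocks. That of all tested probes ran from -0.28 to 0.05.

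Members past 2-fold at 24 h numbered 3, but 12 with floored intensities and 6 at 1.5-fold. The split of 2 higher and 1 lower became 3 and 1 with the authors' ratios and 2 and 0 in the first 18 blocks. It was 1 and 1 in the last 18 blocks and at 50 on all 6 arrays. At 48 h members past 2-fold numbered 1. The count was 4 with an offset of 10 and in the last 18 blocks, 7 with floored intensities, and 2 with median scaling, cyclic loess, no scaling, the median of spots or foreground alone. It was 0 at 50 on all 6 arrays, 3 with mouse probes only, and 6 with the authors' ratios and at 1.5-fold. At 72 h members past 2-fold numbered 12, 9 higher and 3 lower, but 22 with floored intensities and 20 at 1.5-fold. They numbered 7 at 50 on all 6 arrays, where only 10 members remain. The split was 11 and 6 with an offset of 10 or foreground alone, and 12 and 6 with the authors' ratios. It was 8 and 9 without scaling, 10 and 4 with cyclic loess and 9 and 2 with median scaling. With mouse probes only it was 11 and 2, and with the median of spots 10 and 3. It was 9 and 4 in either set of blocks and with spots of high local background left out. The difference of miR-770-3p at 72 h reversed to -0.37 without scaling and -0.0575 in the first 18 blocks; the causes of these shifts were not tested. Of the 21 measured members, 17 had the same sign at 72 h under all alternatives that recompute it, and 8 the same sign of the mean difference. With median scaling the split over all probes at 72 h was 102 higher and 82 lower.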
